A study of Homo sapiens with 6 samples.

Results

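The human mitochondrial genome holds 37 genes, 13 for mRNAs of the respiratory chain, 2 for the rRNAs of the mitochondrial ribosome and 22 for the tRNAs that it reads. All 37 were found among the 57820 genes of the count table by taking each gene whose symbol starts with MT-. Motor neurons had been differentiated from H9, an established human embryonic stem cell line of wild-type genotype, out of motor neuron progenitors in neural culture medium with 0.01 μM RA and 0.1 μM SAG. The cells of 3 libraries were exposed to simulated microgravity (SMG) by a 2D clinostat, a device that turns cultures about an axis, and those of another 3 libraries to normal gravity (NG). Both groups came from this single line and shared the medium, and how long the clinostat ran is not stated in the labels. Separate cultures behind the libraries of a group are not stated either, so a p-value measures spread from library to library that may be technical.

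Both strands of the circular mitochondrial DNA are transcribed as long precursors by the polymerase POLRMT with the factors TFAM and TFB2M. Most mRNAs and rRNAs are flanked by tRNAs, and cutting the tRNAs out frees the RNAs between them. Most of these RNAs then receive short poly(A) tails. The LRPPRC and SLIRP pair protects the mRNAs, and neurons depend on the respiratory chain these genes serve for much of their ATP.

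Only MT-ND6 among the mRNAs, and 8 of the 22 tRNAs, are read from the light-strand precursor, and the other genes from the heavy-strand precursor. Sequences below are the gene sequences of GENCODE 29, 5′ to 3′ in DNA letters. In 6 of the 13 mRNAs the gene lacks 1 or 2 bases of the stop codon, which the poly(A) tail completes. The ends of 3 mRNAs are shown with the stop codon bases in capitals because they carry a result each: MT-CYB had the largest gain called among the mRNAs, MT-CO1 was the most abundant, and MT-ND6 stands on the other strand.
MT-CYB last 30 bases: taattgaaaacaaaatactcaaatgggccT
MT-CO1 last 30 bases: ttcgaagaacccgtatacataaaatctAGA
MT-ND6 last 30 bases: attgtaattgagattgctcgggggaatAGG

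Neighbouring genes overlap by 46 bases for MT-ATP8 and MT-ATP6 and by 7 bases for MT-ND4L and MT-ND4. Shorter overlaps are those of MT-TI with MT-TQ (3 bases), MT-TC with MT-TY (1 base) and MT-ATP6 with MT-CO3 (1 base). The longest pair of overlaps is shown in capitals because a read there can belong to either gene, and the levels of overlapping genes are uncertain to that extent.
MT-ATP8 to MT-ATP6: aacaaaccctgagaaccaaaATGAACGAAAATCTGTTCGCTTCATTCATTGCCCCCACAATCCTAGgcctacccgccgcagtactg
MT-ND4L to MT-ND4: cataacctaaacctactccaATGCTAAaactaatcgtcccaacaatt

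The libraries held 20986483, 22267155 and 22685870 counts for SMG and 21386253, 16329907 and 16600001 counts for NG. Of 17803 genes tested with edgeR's quasi-likelihood test, 35.8% were called between SMG and NG at an adjusted p under 0.05, 17.3% higher in SMG and 18.5% lower. Among 13 motor neuron markers 6 rose and 2 fell, with a summed level of 6338 to 6421 CPM (counts scaled to a common library size) in SMG and 5650 to 6175 in NG. NEFM, at 2319, 2366 and 2385 CPM in SMG and 1582, 1711 and 2050 in NG, weighs heavily in these sums. NEFM was not called (adjusted p = 0.0505). The 2 markers that fell were STMN2 (means of 1856 CPM in SMG and 2012 in NG) and ELAVL4 (373 and 419). Among 10 markers of neural progenitors and cycling cells none rose and 5 fell, with a summed level of 4328 to 4443 CPM in SMG and 4494 to 4752 in NG. Of 10 astrocyte and oligodendrocyte markers 0 rose and 2 fell (483 to 499 CPM in SMG, 514 to 552 in NG), and GFAP, AQP4, ALDH1L1, S100B, MOG and SOX10 stayed under 1 CPM in every library. Of 6 pluripotent markers 0 rose and 1, LIN28A, fell (74.1 to 81.1 CPM in SMG, 83.6 to 90.0 in NG), with POU5F1, NANOG, TDGF1 and L1TD1 under 1 CPM. Of 10 fibroblast and muscle markers 0 rose and 1, PDGFRB, fell (2.60 to 3.90 CPM in SMG, 4.13 to 4.29 in NG), and 8 stayed under 1 CPM. The part of these marker shifts in the results below was not tested, and in bulk libraries a change in the number of cells of a type and a change in RNA per cell cannot be told apart.

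Taken by class, the mitochondrial mRNAs made up more of the SMG libraries and the rRNAs less. The 13 mRNAs held 2.38%, 2.91% and 2.56% of all counts in the SMG libraries and 2.16%, 2.18% and 2.36% in the NG libraries. All 3 SMG libraries lay above all 3 NG libraries, though SMG 1 and NG 3 were close. With TMM scaling SMG 1 lay below NG 3, and the summed level ran from 23567 to 29084 CPM in SMG and from 21737 to 23927 CPM in NG. The 2 rRNAs held 0.482%, 0.507% and 0.477% of counts in SMG and 0.540%, 0.537% and 0.604% in NG. Every SMG library lay below every NG library, at 0.872 times the NG mean. The 22 tRNAs held 0.0156%, 0.0168% and 0.0158% in SMG and 0.0143%, 0.0145% and 0.0156% in NG. SMG 1 and NG 3 met there, so the groups overlapped, and the 95% Wilson interval for NG 3, 0.0150% to 0.0162%, covered both. Over all 37 genes the share was 2.88%, 3.43% and 3.05% in SMG and 2.71%, 2.73% and 2.98% in NG, which overlapped as well.

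**Figure D1:**
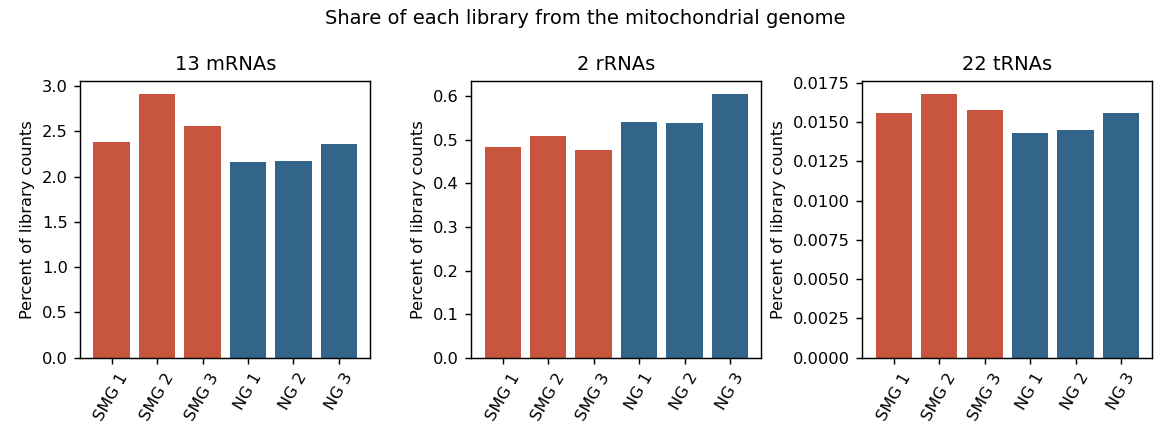
Percent of all library counts that fell on the 13 mRNAs, the 2 rRNAs and the 22 tRNAs, 1 bar per library, SMG in red and NG in blue, each panel on its own axis from 0. The mRNA bars of SMG, 2.38% to 2.91%, stand above those of NG, while the rRNA bars of SMG, 0.477% to 0.507%, stand below those of NG.

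The ratio of rRNA to mRNA differed more between the groups than the share of any class. There were 20.3, 17.4 and 18.6 rRNA counts per 100 mRNA counts in the SMG libraries and 25.0, 24.7 and 25.6 in the NG libraries. The groups were well apart, with a mean of 18.8 ± 1.42 in SMG and 25.1 ± 0.432 in NG (SD, n = 3 each). The number of tRNA counts per 100 mRNA counts was 0.654, 0.576 and 0.616 in SMG and 0.662, 0.667 and 0.658 in NG. These did not overlap either, but SMG 1 stood next to the NG libraries. The ratios are descriptions without a test.

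Gene by gene, 27 of the 37 members passed the filter on low counts, the 13 mRNAs, the 2 rRNAs and 12 tRNAs. The test called 9 of them, 6 higher and 3 lower in SMG, or 33.3% of those tested, close to the 35.8% of all genes. Among the 27, the libraries of the groups did not overlap for 8 members, against 46.3% of all tested genes, with 5 members above (22.6% of all genes) and 3 below (23.6%). The share of members called was therefore near the background, and the classes differed in direction. The mRNAs had 3 genes higher and 0 lower with a median log2 fold change of 0.28, the rRNAs 0 higher and 2 lower with a median of -0.34, and the tested tRNAs 3 higher and 1 lower with a median of 0.09, beside a median of -0.00018 over all genes. The class medians rested on single libraries to different degrees. Without SMG 2 the mRNA median was 0.09, with 1 mRNA called and MT-ND3, MT-ND6 and MT-ATP8 below 0, and without SMG 1 it was 0.43, with 6 called. The tRNA median ran from -0.016 without SMG 2 and -0.015 without NG 1 to 0.21 without NG 3, and was -0.11 with per-library trends in gene length and GC content removed. The rRNA median stayed between -0.37 and -0.29 when any 1 library was left out.

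**Figure D2:**
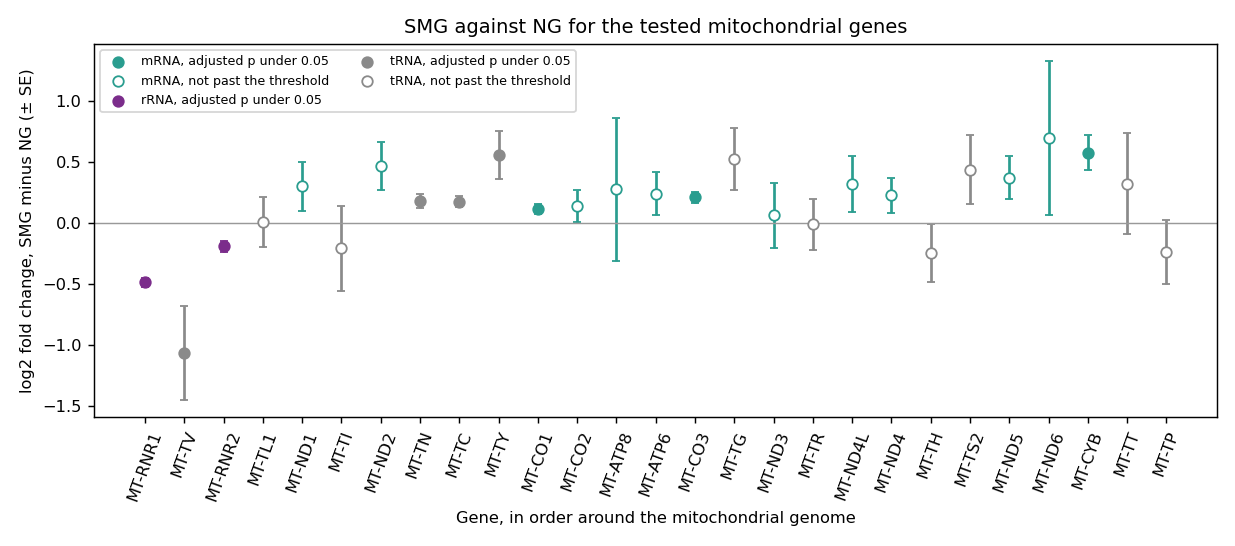
Log2 fold change (SMG minus NG, ± SE of the fit, n = 3 each) of the 27 tested genes in the order in which they lie on the mitochondrial genome, filled where the adjusted p was under 0.05. The 2 rRNAs and MT-TV between them lie below 0, all 13 mRNAs lie above 0 with 3 called (10 above 0 and 1 called without SMG 2), and error bars are wide for MT-ND6 and MT-ATP8.

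Both rRNAs were lower in SMG, and MT-RNR1 had the lowest adjusted p of the 27 tested members. MT-RNR1, the 12S rRNA of the small mitochondrial ribosomal subunit, had 385, 397 and 367 CPM in SMG and 514, 532 and 561 CPM in NG. The SMG libraries were close together and all below the NG libraries, and the log2 fold change was -0.48 ± 0.04 (SE, n = 3 each, edgeR adjusted p = 2.69e-11). MT-RNR2, the 16S rRNA of the large subunit, had 4392, 4677 and 4373 CPM in SMG and 4927, 4871 and 5553 CPM in NG. It too was lower in each SMG library, with a smaller log2 fold change of -0.19 ± 0.05 (adjusted p = 0.00488), which was -0.087 with an adjusted p of 0.125 once per-library trends with the length and GC content of genes were removed. Limma-voom did not call MT-RNR2 either (adjusted p = 0.0936). MT-RNR1 was called under all 16 alternatives, with log2 fold changes from -0.51 to -0.42.

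The 2 rRNAs did not fall by the same amount. MT-RNR1 had 8.76, 8.49 and 8.38 counts per 100 counts of MT-RNR2 in SMG and 10.4, 10.9 and 10.1 in NG, and the groups did not overlap. The genes lie one after the other on the heavy-strand precursor with MT-TV, the tRNA for valine, between them. MT-TV was counted 5, 7 and 9 times in the SMG libraries and 11, 13 and 12 times in the NG libraries, all SMG below all NG. Its log2 fold change was -1.06 ± 0.38 (adjusted p = 0.0299), from counts this low. The call was lost without SMG 1, without SMG 2, without NG 2 or without NG 3 (adjusted p from 0.0758 to 0.108). It was also lost without the filter on low counts (adjusted p = 0.0585). DESeq2 and the filter of 1 CPM in 3 libraries gave no adjusted p for MT-TV, and 9 of the 14 other alternatives called it. Its gene is shown with the anticodon in capitals as the member that lies between the rRNAs and fell with them.
MT-TV: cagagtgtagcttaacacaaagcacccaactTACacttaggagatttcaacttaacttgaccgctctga

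MT-CYB encodes cytochrome b, the only mitochondrially encoded subunit of complex III. It had 1184, 1571 and 1442 CPM in SMG and 838, 959 and 1017 CPM in NG, a mean of 1399 ± 197 in SMG and 938 ± 91.0 in NG (SD, n = 3 each). Every SMG library was above every NG library, and the log2 fold change was 0.58 ± 0.14 (adjusted p = 0.0411). The call was lost when any library other than SMG 1 was left out (log2 fold changes from 0.49 to 0.64, adjusted p from 0.0781 to 0.128) and without the filter on low counts (adjusted p = 0.0806).

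The mRNAs of complex IV include the most abundant one. MT-CO1, which holds the oxygen-reducing centre of cytochrome c oxidase, had 10754, 11817 and 10588 CPM in SMG and 9876, 10033 and 10681 CPM in NG. SMG 3 lay just below NG 3, so the groups overlapped, and the log2 fold change was 0.12 ± 0.04 (adjusted p = 0.0256). Without SMG 2, NG 1 or NG 2 it was not called (log2 fold changes from 0.065 to 0.10, adjusted p from 0.108 to 0.226), and limma-voom did not call it either (adjusted p = 0.210). MT-CO3, a subunit beside that core, had 3401, 3580 and 3594 CPM in SMG and 2865, 2949 and 3321 CPM in NG. Its groups did not overlap, and it rose by 0.21 ± 0.05 on the log2 scale (adjusted p = 0.00379), a call lost only with limma-voom (adjusted p = 0.0624). MT-CO2, which accepts electrons from cytochrome c, had 1684, 2174 and 1967 CPM in SMG and 1725, 1601 and 1957 CPM in NG. The groups overlapped and it did not pass the test (log2 fold change 0.14 ± 0.13, adjusted p = 0.494).

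None of the 7 mRNAs of complex I, the entry point for electrons from NADH, passed the test. MT-ND2, a membrane arm subunit, had 923, 1499 and 1157 CPM in SMG and 866, 838 and 883 CPM in NG. All SMG libraries lay above all NG libraries, with SMG 2 far above the others, and the log2 fold change was 0.47 ± 0.20 (adjusted p = 0.158). MT-ND5, the most distal membrane subunit, had 1314, 1999 and 1631 CPM in SMG and 1188, 1313 and 1317 CPM in NG. SMG 1 fell among the NG libraries, and the log2 fold change was 0.37 ± 0.18 (adjusted p = 0.195).

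MT-ND1, the membrane subunit next to the quinone site, had 814, 1270 and 940 CPM in SMG and 855, 743 and 857 CPM in NG. MT-ND4, another proton-pumping subunit, had 1930, 2643 and 2173 CPM in SMG and 1872, 1804 and 2077 CPM in NG. MT-ND4L, a small membrane subunit, had 388, 646 and 463 CPM in SMG and 420, 353 and 422 CPM in NG. In these 3 genes SMG 2 was the highest of all 6 libraries and SMG 1 lay within the NG range, and the log2 fold changes were 0.30 ± 0.20, 0.23 ± 0.14 and 0.32 ± 0.23 in that order (adjusted p = 0.332, 0.306 and 0.362). Without SMG 2 they were 0.099, 0.097 and 0.094.

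MT-ND3, a small subunit at the joint of the arms, had 239, 366 and 332 CPM in SMG and 245, 271 and 383 CPM in NG, with the highest value in NG 3 and a log2 fold change of 0.06 ± 0.26 that was -0.068 without SMG 2. MT-ND6, the light-strand mRNA, had 32.2, 118 and 40.6 CPM in SMG and 36.3, 37.9 and 44.3 CPM in NG. A single library, SMG 2, stood apart, and the log2 fold change of 0.70 ± 0.63 (adjusted p = 0.478) was -0.11 (adjusted p = 0.537) when SMG 2 was left out. As the strand setting is not stated, reads from the opposite strand cannot be told apart in the counts of MT-ND6.

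The ATP synthase mRNAs, both for subunits of the membrane-embedded part, did not pass the test either. MT-ATP6, which forms the proton channel with the c-ring, had 899, 1384 and 1112 CPM in SMG and 940, 973 and 960 CPM in NG (log2 fold change 0.24 ± 0.18, adjusted p = 0.378). MT-ATP8, an accessory subunit, had 5.05, 16.7 and 7.49 CPM in SMG and 10.8, 5.85 and 6.95 CPM in NG. SMG 2 was again the highest and SMG 1 the lowest of all, and the log2 fold change of 0.28 ± 0.59 was -0.35 without SMG 2. Robust estimation lets genes with an unusually wide spread keep their own dispersion. Without it edgeR called 15 members in place of 9, adding MT-ND1, MT-ND2, MT-ND4, MT-ND4L, MT-ND5 and MT-ATP6 as higher in SMG. Leaving out SMG 1 brought MT-ND2, MT-ND5 and MT-ATP6 past the threshold (log2 fold changes from 0.38 to 0.62, adjusted p from 0.0332 to 0.0442). Leaving out SMG 2 brought the same 3 genes down to 0.27 for MT-ND2 (adjusted p = 0.151), 0.21 for MT-ND5 (adjusted p = 0.303) and 0.070 for MT-ATP6 (adjusted p = 0.642).

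**Figure D3:**
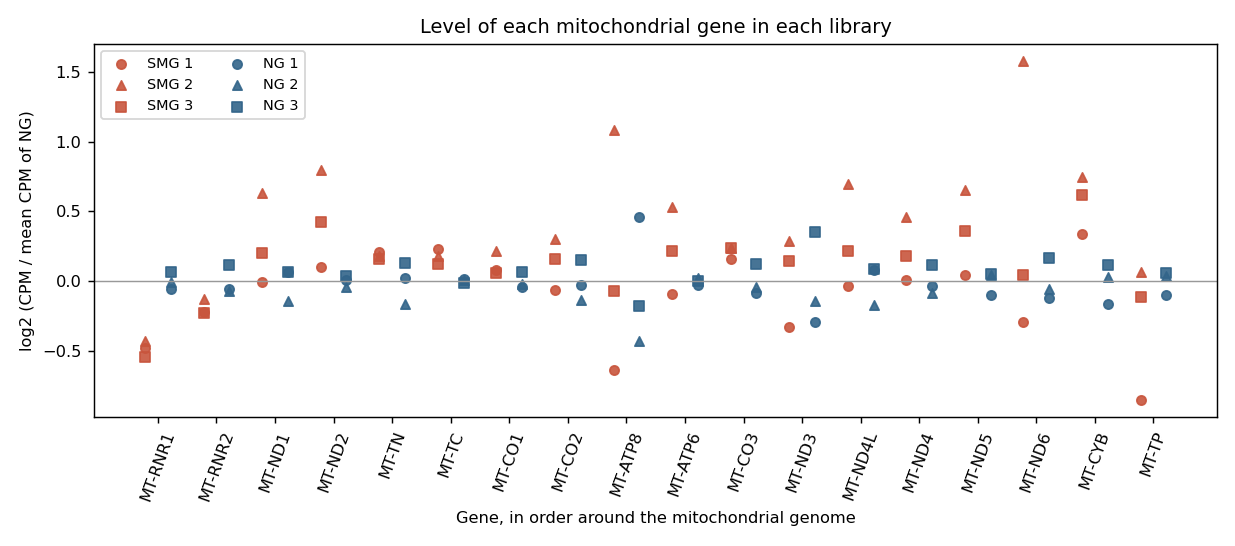
Log2 of each library's CPM over the mean CPM of NG for the mRNAs, the rRNAs and the tRNAs with the highest counts, in the order in which they lie on the mitochondrial genome, with 1 marker shape per replicate number, SMG in red left of NG in blue. SMG 2 (triangles) is the highest SMG library for 12 of 13 mRNAs, the exception being MT-CO3, while the 3 SMG libraries sit close together for the rRNAs, MT-TN and MT-TC.

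The spread between libraries of one group was itself a feature of these mRNAs. SMG 2 over SMG 1 ran from 1.05 for MT-CO3 and 1.10 for MT-CO1 through 1.52 for MT-ND5, 1.56 for MT-ND1, 1.62 for MT-ND2 and 1.66 for MT-ND4L to 3.31 for MT-ATP8 and 3.66 for MT-ND6. The rRNAs had ratios of 1.03 for MT-RNR1 and 1.06 for MT-RNR2. Among the 13 members that averaged at least 100 CPM, the highest SMG library was at least 1.3 times the lowest for 8, with a median ratio of 1.37. Of 2465 other genes at that level 5 reached 1.3, or 0.203%, with a median ratio of 1.04. In NG, 1 of the 13 members reached it, MT-ND3, with a median of 1.15, against 0.122% of the other genes and a median of 1.06. The limit of 1.3 was chosen after the values were seen, and the count is a description. A different and stricter measure is a level over 1.5 times both other SMG libraries. Of 10424 genes at or above a mean of 10 CPM, 5 reached it in SMG 2, 1 of them MT-ND6. In SMG 1 it was reached by 3 genes and in SMG 3 by 0. NDUFS4, a nuclear-encoded complex I subunit, was the 1 gene as far below both others in SMG 2. SMG 1 was the lowest of the SMG libraries for 11 of the 12 mRNAs at or above a mean of 10 CPM, and NG 3 the highest of the NG libraries for 11 of 12.

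Within the mRNA pool MT-CYB took a larger share in SMG, and for the other 12 mRNAs the shares of the groups overlapped. MT-CO1 held 45.6%, 40.6% and 41.6% of the counts of the 13 mRNAs in SMG and 45.4%, 45.9% and 44.6% in NG, which overlapped. MT-CYB held 5.02%, 5.40% and 5.67% in SMG and 3.86%, 4.38% and 4.25% in NG, with no overlap. MT-ND6 held 0.137%, 0.406% and 0.160% in SMG and 0.167%, 0.173% and 0.185% in NG, with SMG 2 apart from the other 5 libraries. MT-ND6 had 2.72, 7.51 and 2.82 counts per 100 counts of MT-CYB in SMG and 4.33, 3.95 and 4.36 in NG, so that SMG 1 and SMG 3 lay below NG and SMG 2 above it.

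**Figure D4:**
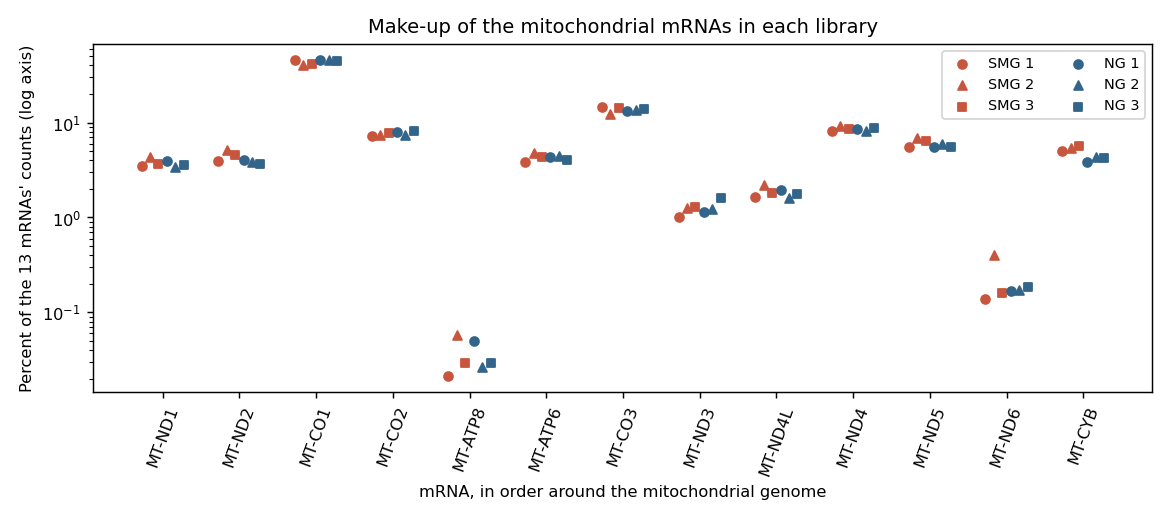
Share of each of the 13 mRNAs in the summed counts of the 13, in percent on a log axis, in genome order, SMG in red left of NG in blue. MT-CO1 holds over 40% in each library, MT-CYB is higher in all SMG libraries, and MT-ND6 and MT-ATP8 are set apart by SMG 2.

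A second fit over all genes, with the summed counts of the 13 mRNAs as library size, asked which members differed from the mRNAs as a whole. In that fit 24.6% of all genes were called, 0.927% higher and 23.7% lower, and 5 members were called, 1 higher and 4 lower. MT-CYB was higher by 0.37 ± 0.11 on the log2 scale (edgeR's quasi-likelihood test, adjusted p = 0.00870). MT-RNR1 was lower with a log2 fold change of -0.69 ± 0.11 (adjusted p = 2.27e-07), MT-RNR2 with -0.39 ± 0.11 (adjusted p = 0.00351) and MT-TV with -1.28 ± 0.43 (adjusted p = 0.0173). MT-TP, the tRNA for proline, was lower with -0.47 ± 0.13 (adjusted p = 0.00253). The mRNAs stand in their own denominator here, and the call for MT-CYB was lost without SMG 3, NG 1 or NG 2 and with MT-CO1 left out of the denominator (log2 fold changes from 0.30 to 0.41, adjusted p from 0.0601 to 0.160). MT-RNR2 lost its call in this fit without SMG 3 or NG 1 (adjusted p = 0.0662 and 0.0542), and MT-TV and MT-TP without NG 2 (adjusted p = 0.119 and 0.0612). Without SMG 1, its lowest library, MT-TP had a log2 fold change of -0.30 in this fit and was still called (adjusted p = 0.0452).

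Levels per kilobase of gene, in mean CPM, placed MT-CO1 first with 7168 in SMG and 6613 in NG, then MT-CO3 with 4496 in SMG and 3884 in NG. MT-RNR2 followed with 2874 in SMG and 3282 in NG, and MT-CO2 with 2839 in SMG and 2575 in NG. In SMG the difference between MT-RNR2 and MT-CO2 was smaller than their spread, while in NG it was larger than their spread. The lowest mRNA per kilobase was MT-ATP8 with 47.1 in SMG and 38.1 in NG, and MT-ND6 came next with 121 in SMG and 75.2 in NG. MT-RNR1 stood at 401 in SMG and 562 in NG, well under MT-RNR2 although both rRNAs enter the ribosome in equal number. Whether the library kit captured each RNA equally was not tested.

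The tRNAs were thinly covered, and 3 of them held most of the counts. MT-TN, MT-TC and MT-TP, the tRNAs for asparagine, cysteine and proline and all on the light-strand precursor, made up 87.7%, 87.1% and 88.5% of the tRNA counts in SMG and 90.3%, 86.9% and 86.1% in NG. Their genes are shown with the anticodon in capitals, as the most counted tRNAs, together with that of MT-TY, which was called with far fewer counts.
MT-TN: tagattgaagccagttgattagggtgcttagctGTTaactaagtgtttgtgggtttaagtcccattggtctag
MT-TC: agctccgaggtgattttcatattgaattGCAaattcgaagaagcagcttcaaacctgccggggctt
MT-TP: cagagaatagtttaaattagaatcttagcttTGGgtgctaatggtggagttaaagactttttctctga
MT-TY: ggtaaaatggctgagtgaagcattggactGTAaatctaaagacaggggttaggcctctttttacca

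MT-TN had 52.3, 51.4 and 50.5 CPM in SMG and 45.9, 40.4 and 49.6 CPM in NG. MT-TC had 67.3, 65.2 and 62.4 CPM in SMG and 57.9, 57.6 and 56.9 CPM in NG. Neither overlapped between the groups, and the log2 fold changes were 0.18 ± 0.06 for MT-TN (adjusted p = 0.0137) and 0.18 ± 0.05 for MT-TC (adjusted p = 0.00290). With the length and GC trend removed these became -0.0060 and -0.065 (adjusted p = 0.943 and 0.310). Of the 66 tested genes of at most 100 bases, which set that trend at its short end, 12 were these tRNAs. MT-TN also lost its call without SMG 1, SMG 2 or NG 2 (log2 fold changes from 0.11 to 0.18, adjusted p from 0.0501 to 0.130).

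MT-TP had 15.5, 29.3 and 25.8 CPM in SMG and 26.02, 28.7 and 29.1 CPM in NG, with SMG 1 alone far below the rest and a log2 fold change of -0.24 ± 0.26 (adjusted p = 0.561), which was -0.017 without SMG 1. MT-TY, the tRNA for tyrosine, had 3.07, 3.01 and 3.55 CPM in SMG and 1.79, 3.26 and 1.58 CPM in NG. NG 2 lay within the SMG range, and the log2 fold change was 0.56 ± 0.20 (adjusted p = 0.0312), a call lost under 7 of 16 alternatives, among them the omission of any library other than NG 2 (log2 fold changes from 0.40 to 0.60, adjusted p from 0.0578 to 0.183). The other 7 tested tRNAs, MT-TL1, MT-TI, MT-TG, MT-TR, MT-TH, MT-TS2 and MT-TT, had means from 0.498 CPM for MT-TI to 4.82 CPM for MT-TL1 in SMG and from 0.419 CPM for MT-TT to 4.90 CPM for MT-TL1 in NG, with overlapping groups and no call. The remaining 10 tRNAs were not tested and had 0 to 9 counts per library. A read over a tRNA gene can come from an uncut precursor as well as from the tRNA, and without a stated strand setting reads from the opposite strand cannot be told apart.

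The respiratory complexes join the products of both genomes. With all 6 libraries the medians of the mitochondrial and the nuclear subunits had opposite signs in each complex, and without SMG 2 this did not hold for ATP synthase. Of 74 nuclear-encoded subunits of complexes I, III and IV and ATP synthase, all of which were tested, the median log2 fold change was -0.16 for complex I (2 of 37 higher, 15 lower), -0.11 for complex III (0 of 9 higher, 4 lower), -0.20 for complex IV (0 of 11 higher, 9 lower) and -0.19 for ATP synthase (0 of 17 higher, 11 lower). The mitochondrially encoded subunits had medians of 0.32, 0.58, 0.14 and 0.26 in the same order of complexes, with 0 of 7, 1 of 1, 2 of 3 and 0 of 2 called higher. Over all tested genes 17.3% were called higher and 18.5% lower. Without SMG 2 the mitochondrial medians were 0.097 for complex I, 0.49 for complex III, 0.065 for complex IV and -0.14 for ATP synthase, so that ATP synthase no longer differed in sign. Without SMG 1 they were 0.48, 0.69, 0.23 and 0.48 in the same order, without NG 1 that of ATP synthase was 0.42, and without NG 3 that of complex IV was 0.23. The nuclear medians stayed below 0 when any 1 library was left out, from -0.20 for ATP synthase without SMG 2 to -0.065 for complex III without NG 2. NDUFB4, an accessory subunit of complex I, had 54.7, 60.2 and 53.9 CPM in SMG and 72.7, 73.1 and 81.7 CPM in NG, and fell by 0.43 on the log2 scale (adjusted p = 3.04e-07). COX7C, a small subunit of complex IV, had 131, 143 and 141 CPM in SMG and 170, 179 and 184 CPM in NG (log2 fold change -0.36 ± 0.04, adjusted p = 3.29e-08). UQCRC2, a core protein of complex III, had a log2 fold change of -0.23 ± 0.04 (adjusted p = 9.04e-06), and ATP5F1C, the gamma subunit of ATP synthase, one of -0.26 ± 0.04 (adjusted p = 7.50e-06). These 4 genes were picked as those with the lowest adjusted p for their complex, and the groups did not overlap for any of them. All SMG libraries lay below all NG libraries for 23.6% of all tested genes.

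**Figure D5:**
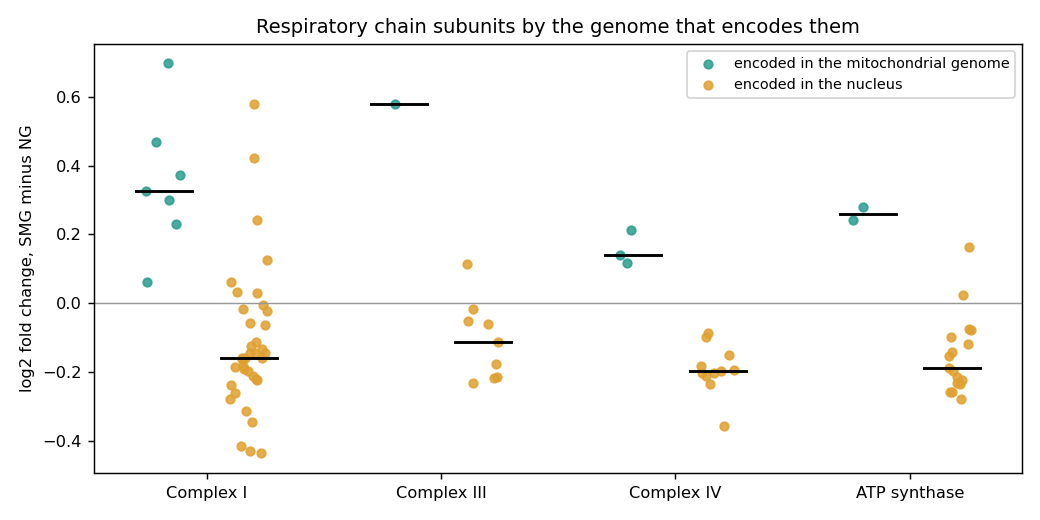
Log2 fold change (SMG minus NG) of each tested subunit of complexes I, III and IV and ATP synthase, by the genome that encodes it, with a bar at the median. With all 6 libraries the mitochondrial subunits (green) lie above 0 (without SMG 2, MT-ND3, MT-ND6 and MT-ATP8 do not) and the medians of the nuclear subunits (orange) lie between -0.20 and -0.11.

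Of 22 genes for mitochondrial DNA replication and transcription 3 rose and 3 fell, with a median of -0.02. The shares over all tested genes were 17.3% higher and 18.5% lower. POLRMT (log2 fold change 0.02 ± 0.06, adjusted p = 0.821) and the elongation factor TEFM (0.00 ± 0.09, adjusted p = 0.989) did not pass. TFAM, which packages and bends the DNA at the promoters, had 75.8, 72.3 and 74.1 CPM in SMG and 77.2, 79.4 and 81.9 CPM in NG, with no overlap, and missed the threshold (-0.10 ± 0.04, adjusted p = 0.0589). TFB2M, which opens the promoter, rose by 0.24 ± 0.09 (adjusted p = 0.0433), as did TWNK, the replicative helicase (0.23 ± 0.07, adjusted p = 0.0126), and TOP3A, a topoisomerase (0.13 ± 0.05, adjusted p = 0.0284). MGME1, a nuclease of replication, fell (-0.26 ± 0.06, adjusted p = 0.00119), and so did SSBP1, which coats single-stranded DNA (-0.24 ± 0.08, adjusted p = 0.0420).

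Of 24 genes for mitochondrial RNA processing, stability and decay 4 rose and 3 fell, with a median of -0.03. Among all tested genes 17.3% rose and 18.5% fell. LRPPRC had 222, 216 and 215 CPM in SMG and 243, 243 and 252 CPM in NG, all SMG below all NG, and fell by 0.18 on the log2 scale (adjusted p = 9.31e-05). Its partner SLIRP had 16.0, 16.7 and 17.0 CPM in SMG and 18.2, 17.1 and 18.2 CPM in NG and did not pass (-0.11 ± 0.07, adjusted p = 0.248). GRSF1, an RNA granule protein, fell (-0.12 ± 0.03, adjusted p = 0.00719), and FASTK, whose mitochondrial form is needed for MT-ND6 mRNA, rose (0.24 ± 0.06, adjusted p = 0.00151). DHX30, a helicase of mitochondrial ribosome assembly, rose by 0.12 ± 0.04 (adjusted p = 0.0122).

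Of 22 genes for the modification of mitochondrial tRNAs and rRNAs 21 were found and tested, and 5 rose and 1 fell, with a median of 0.01. Beside these counts stand 17.3% higher and 18.5% lower over all tested genes. TRIT1, which modifies adenosine next to the anticodon, had 33.4, 31.2 and 30.04 CPM in SMG and 39.1, 40.7 and 42.7 CPM in NG, and fell by 0.37 on the log2 scale (adjusted p = 7.05e-06). NSUN2, a cytosine methyltransferase (0.21 ± 0.04, adjusted p = 0.000438), GTPBP3, a wobble-uridine enzyme (0.25 ± 0.07, adjusted p = 0.00300), and QTRT1, a queuine transferase subunit (0.21 ± 0.06, adjusted p = 0.0120), rose. Of 19 nuclear RNAs without a poly(A) tail 12 were found and 1, RMRP, was tested. RMRP fell (-0.97 ± 0.37, adjusted p = 0.0382) at 0.283, 0.404 and 0.350 CPM in SMG and 0.801, 0.554 and 0.670 CPM in NG, and the list summed to 0.788 to 1.39 CPM in SMG and 1.52 to 1.84 CPM in NG. The part of this shift in the rRNA result was not tested.

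Nuclear copies of mitochondrial genes can share reads with them where the sequences match, and 7 named ones had a mean of at least 1 CPM. MTCO3P12, 98.2% identical to MT-CO3 over 547 aligned bases, had 103, 114 and 105 CPM in SMG and 92.5, 92.3 and 123 CPM in NG (log2 fold change 0.07 ± 0.14). MTCO1P12, 98.7% identical to MT-CO1, rose by 0.18 ± 0.07 (adjusted p = 0.0417), and MTND2P28, 98.4% identical to MT-ND2, by 0.44 ± 0.13 (adjusted p = 0.00830). MTND2P28 had 9.63, 9.34 and 8.10 CPM in SMG and 5.19, 8.13 and 6.89 CPM in NG, without the high value in SMG 2 that MT-ND2 had. MTND5P1, aligned to MT-ND5 over 407 bases at 75.7% identity, rose by 0.64 ± 0.19 (adjusted p = 0.00764). MTND4P12 (-0.29 ± 0.38), MTCYBP21 (0.36 ± 0.18, 73.2% identical to MT-CYB) and MTRNR2L2 (-0.30 ± 0.26) did not pass. All 402 names of such copies together held 3253, 3653 and 3477 counts in SMG and 2828, 2229 and 2782 counts in NG, against the 499276 counts or more of the 13 mRNAs in each SMG library and 355270 or more in each NG library. The sources do not state how reads that fit several places were counted, so the levels of each pair are uncertain to that extent.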

How the data were processed

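RNA-seq libraries were made from total RNA with a SMARTer mRNA kit, per the labels' protocols. The authors deposited raw read counts for each Ensembl gene in each library. The submitters' processing notes name HISAT2, SAMtools, featureCounts, DESeq2 and the build hg19. Versions, annotation, strand setting and the handling of multi-mapping reads are not stated.

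Symbols came from a table of gene names and GENCODE 29 (52338 of 57820 genes). GENCODE 29 is on another build, so it gave names, order, strand, length and sequence but no coordinates. Total counts ran from 16329907 to 22685870. This depth gave log2 fold changes a median SE of 0.0524 at 10 CPM or more. All pairs of libraries within a group differed beyond sampling noise, with a chi-square of 1.57 to 3.25 per degree of freedom.

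Counts were filtered with filterByExpr, which left 17803 genes, scaled by TMM and tested with edgeR 4.0.16's quasi-likelihood test (R 4.3.3, robust estimation, Benjamini-Hochberg adjustment, threshold 0.05). The adjusted p-values in the report are from edgeR's test where no other is given, and CPM values are TMM-scaled. A second fit used the summed counts of the 13 mRNAs as library size. Shares of library counts are not TMM-scaled, and intervals cover counting error only. Alternatives used DESeq2 1.42.0, limma-voom (limma 3.58.1), other scalings and filters, a replicate block, and each library left out. Removal of a length and GC trend (natural splines with 4 degrees of freedom), and every alternative of the second fit, were added after the data were seen. The code was tested on simulated data.

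The members, the 13 gene lists and the tests were chosen with earlier results of these data known. All 37 members were covered, the 10 untested tRNAs by their number and range of counts. Also chosen for naming were genes among the up to 4 called per list with the lowest adjusted p. So were POLRMT, TFAM, TFB2M, TEFM, LRPPRC and SLIRP, and nuclear copies at a mean of 1 CPM or more. Not all of these are printed, and marker lists are given mainly by counts and ranges.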

Additional observations from a re-analysis of the deposited data

How the results depend on the processing

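With DESeq2's size factors, library totals alone, or scaling without the mitochondrial genes, the count of members called stayed at 9, and it was 7 without the filter, 8 with a filter of 1 CPM in 3 libraries, 7 with DESeq2 and 6 with limma-voom. Over all genes the number called was 6376 in the main fit and 6244 to 6385 with the other scalings. It was 5898 without the filter, 6312 with the filter of 1 CPM, 4648 with DESeq2 and 6336 with limma-voom. The count of members was 15 (12 higher) without robust estimation and 5 (3 higher) with the length and GC trend removed. For these settings, and for the fits that left out 1 library, the number over all genes is not given here. Leaving out 1 library at a time gave 4 to 9 members called, 2 to 7 of them higher, with 4 (2 higher) without SMG 2, 5 (3 higher) without NG 2 and 3 higher without NG 1. Relative to the mRNAs, leaving out 1 library gave 2 to 6 calls, 0 to 2 higher and 2 to 5 lower, and 0 higher with MT-CO1 out of the denominator. The calls there were 3 without SMG 3, 3 without NG 1 and 2 without NG 2, each with 0 higher. The log2 difference in rRNA share was -0.20, and -0.46 for MT-RNR1 alone, without MT-RNR2.

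Called members that turned sign with the length and GC trend removed were MT-TN (-0.0060) and MT-TC (-0.065). Uncalled members near 0 also turned: MT-TR to 0.010 with library totals alone, 0.0017 without a filter and 0.028 with limma-voom, and MT-TL1 to -0.0073 with DESeq2 and -0.16 with the trend removed. Over the fits without 1 library the log2 fold changes ran from -0.25 to 0.30 for MT-TL1, from -0.21 to 0.27 for MT-TR, from -0.35 to 0.61 for MT-ATP8, from -0.068 to 0.28 for MT-ND3, from -0.11 to 1.01 for MT-ND6, from -0.040 to 1.003 for MT-TT and from -0.53 to 0.041 for MT-TH. The causes were not tested.

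Same-numbered libraries did not deviate together (correlations of -0.0041, 0.02 and -0.03). Whether the numbers pair the libraries is not stated in the labels. A fit with the replicate number as a block called 9 members and 6333 genes, and 5 members relative to the mRNAs. The 10 untested tRNAs (0 to 9 counts) and MT-TV (5 to 13 counts) had too few counts for a precise fold change.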
